A study of Mus musculus with 20 samples.

Results

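The mouse mitochondrial genome encodes 2 ribosomal RNAs, 13 mRNAs and 22 transfer RNAs, and all 37 genes have a row among the 47729 genes of the count files. The 9 genes described here were chosen by their counts, as mitochondrially encoded RNAs that keep substantial numbers of uniquely aligned reads. They are the rRNAs *mt-Rnr1* (12S) and *mt-Rnr2* (16S), and the mRNAs *mt-Nd1*, *mt-Nd2*, *mt-Nd4*, *mt-Nd5*, *mt-Nd6*, *mt-Co1* and *mt-Cytb*. Since counts chose them, their levels are a description and were not tested, while the differences between genotypes and regions were.

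RNA was sequenced from the cortex and hippocampus of 5 WT and 5 Ube3aOE mice of the C57Bl/6J strain at postnatal day 7, without any treatment named in the labels. Ube3aOE mice (Ube3a+2 in the study) carry additional copies of *Ube3a*, which encodes a ubiquitin ligase, on a bacterial artificial chromosome transgene with its own flanking sequence. The labels do not name the transgenic line of the sequenced mice. Mice 1 to 5 are WT and mice 6 to 10 Ube3aOE, and each mouse gave 1 library of each region, so the 20 libraries come from 10 mice. The question behind the comparison of genotypes was whether additional UBE3A changes transcription in the developing brain.

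Both strands of the circular mitochondrial genome are transcribed into long precursors, from which the transfer RNAs are cut out and the RNAs between them released. The rRNAs form the mitochondrial ribosome with imported proteins, and the mRNAs encode subunits of the respiratory chain and of ATP synthase. Most mitochondrial mRNAs receive a poly(A) tail, which in some of them completes the stop codon, while the rRNAs have short tails. The libraries were made with a kit for mRNA, which selects RNA by its poly(A) tail, so a count of an rRNA in such a library is not a measure of all rRNA in the tissue.

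The 3′ ends of the members show how differently they finish. The last 30 bases of 6 of them are shown 5′ to 3′ on the coding strand (GRCm38, GENCODE M21 transcripts), with the stop codon, or the part of one that the gene encodes, in capitals. They are *mt-Rnr1* (chrM:995-1024), *mt-Rnr2* (chrM:2646-2675), *mt-Nd1* (chrM:3678-3707), *mt-Nd4* (chrM:11515-11544), *mt-Co1* (chrM:6843-6872) and *mt-Cytb* (chrM:15259-15288).
mt-Rnr1: aagcatactggaaagtgtgcttggaataat
mt-Rnr2: atacgtacaccctctaacctagagaaggtt
mt-Nd1: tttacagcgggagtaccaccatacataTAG
mt-Nd4: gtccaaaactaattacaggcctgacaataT
mt-Co1: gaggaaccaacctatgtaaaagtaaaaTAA
mt-Cytb: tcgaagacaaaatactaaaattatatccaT
The rRNAs encode no protein and end without a stop codon. *mt-Nd1* and *mt-Co1* encode a whole stop codon, whereas *mt-Nd4* and *mt-Cytb* end 1 base after their last codon, on the T that a poly(A) tail extends to TAA.

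Which mitochondrial RNAs can be counted depends on copies of the mitochondrial genome in the nuclear genome, because reads that align to more than 1 place were not counted. GENCODE M21 transcripts of nuclear genes were searched on both strands for each stretch of 50 bases of the 15 mitochondrial rRNAs and mRNAs. All stretches of *mt-Rnr1*, *mt-Nd1*, *mt-Nd6* and *mt-Cytb* were unique, as were 99.0% of those of *mt-Rnr2*, 92.4% of *mt-Nd5* and 91.8% of *mt-Nd2*. In *mt-Co1* 48.9% were unique and in *mt-Nd4* 37.8%. In 5 of the 6 mRNAs outside the 9 members at most 2.01% were unique, which is the share for *mt-Nd3*. These were *mt-Nd3*, *mt-Nd4l*, *mt-Co2*, *mt-Co3* and *mt-Atp6*, with mean counts of 2.75 to 35.3 per library. The sixth, *mt-Atp8*, had a mean count of 0.7, although no annotated transcript shared a stretch with it. The search covered transcripts and not the whole genome, so an unannotated copy would have been missed. *Gm20594* on chromosome 6 was the nuclear gene that shared stretches with *mt-Rnr2*.

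The lost mRNAs lie beside each other in the mitochondrial genome, and so do their copies, which are annotated as pseudogenes on chromosome 1 between 24611535 and 24616197. A stretch of *mt-Co3* (chrM:8622-8651) and its place in *Gm28437* (chr1:24613927-24613956, minus strand) show a part of the copy within which a read matches both places.
mt-Co3: catgcatatcacatagttaatccaagtcca
Gm28437: catgcatatcacatagttaatccaagtcca
All 783 aligned bases of these genes were identical. The next pair shows where the copy of *mt-Co1* begins, with the differing bases in capitals (*mt-Co1*, chrM:6381-6410, and *Gm29216*, chr1:24616168-24616197, minus strand).
mt-Co1: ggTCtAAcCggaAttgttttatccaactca
Gm29216: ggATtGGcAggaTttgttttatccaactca
The differences, with the mitochondrial base first and positions counted from the 5′ end of the printed stretch, were T3A, C4T, A6G, A7G, C9A and A13T. They were the 6 differences in 492 aligned bases (98.8% identity), so reads from the rest of this part of *mt-Co1* match both places.

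**Figure D1:**
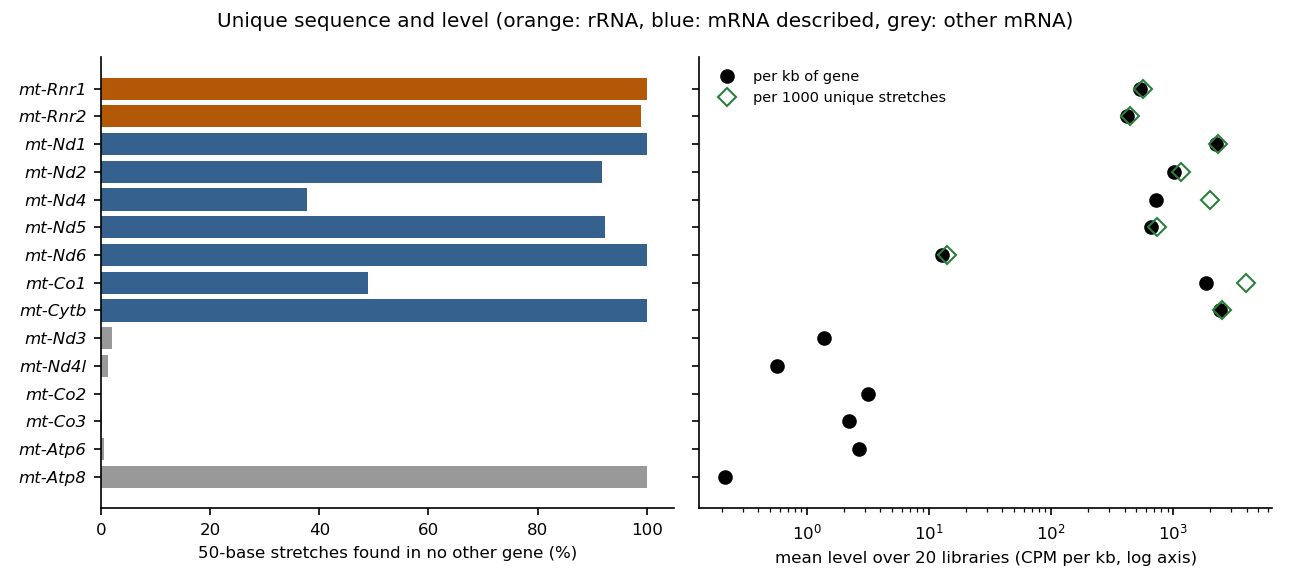
Left, the percentage of stretches of 50 bases in each mitochondrial rRNA and mRNA that were found in no other annotated gene. Right, the mean level over 20 libraries on a log axis in CPM per kb of gene (filled circles) and, for the 9 members, per 1000 unique stretches (diamonds). *mt-Nd4* and *mt-Co1* move furthest between both scales, and the 6 other mRNAs lie at 3.20 CPM per kb or lower.

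The 9 members held 99.9% of all mitochondrial counts in each library, and mitochondrial genes together took 0.822% to 1.58% of the counts on genes. Levels are given as CPM, counts scaled by the library's total on genes and edgeR's TMM factor, and are compared between genes per kb of gene length. Over the 20 libraries, *mt-Cytb*, a subunit of complex III, was the most abundant with 2404 ± 434 CPM per kb (SD, n = 20 libraries). It was followed by *mt-Nd1* with 2228 ± 468 CPM per kb and *mt-Co1*, the catalytic subunit of complex IV, with 1868 ± 322 CPM per kb. The complex I subunits *mt-Nd2*, *mt-Nd4* and *mt-Nd5* were at 1018 ± 199, 726 ± 140 and 658 ± 125 CPM per kb. The rRNAs came below these mRNAs, *mt-Rnr1* at 540 ± 166 and *mt-Rnr2* at 421 ± 158 CPM per kb. *mt-Nd6*, a complex I subunit and the mRNA that the other strand encodes, was at 12.7 ± 3.75 CPM per kb.

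The ranges over libraries overlapped between each pair of neighbours in this order except *mt-Rnr2* and *mt-Nd6*. Within single libraries the order was nevertheless stable. *mt-Nd1* was above *mt-Co1*, *mt-Co1* above *mt-Nd2*, *mt-Nd2* above *mt-Nd4* and *mt-Rnr1* above *mt-Rnr2* in 20 of 20 libraries. *mt-Cytb* was above *mt-Nd1* in 18, *mt-Nd4* above *mt-Nd5* in 19 and *mt-Nd5* above *mt-Rnr1* in 18 of 20. The order depends on the unique sequence, since per 1000 unique stretches *mt-Co1* came first with 3948 CPM, and *mt-Nd4* rose to 1992 CPM, next to *mt-Nd1* with 2349 CPM. The read length was not given in the sources used here, so this second scale is approximate. *mt-Nd6* was counted 41 to 173 times per library, against at least 5340 counts for each of the other 8 members, and its end overlaps the end of *mt-Nd5* on the opposite strand (chrM:13552-13565).

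**Figure D2:**
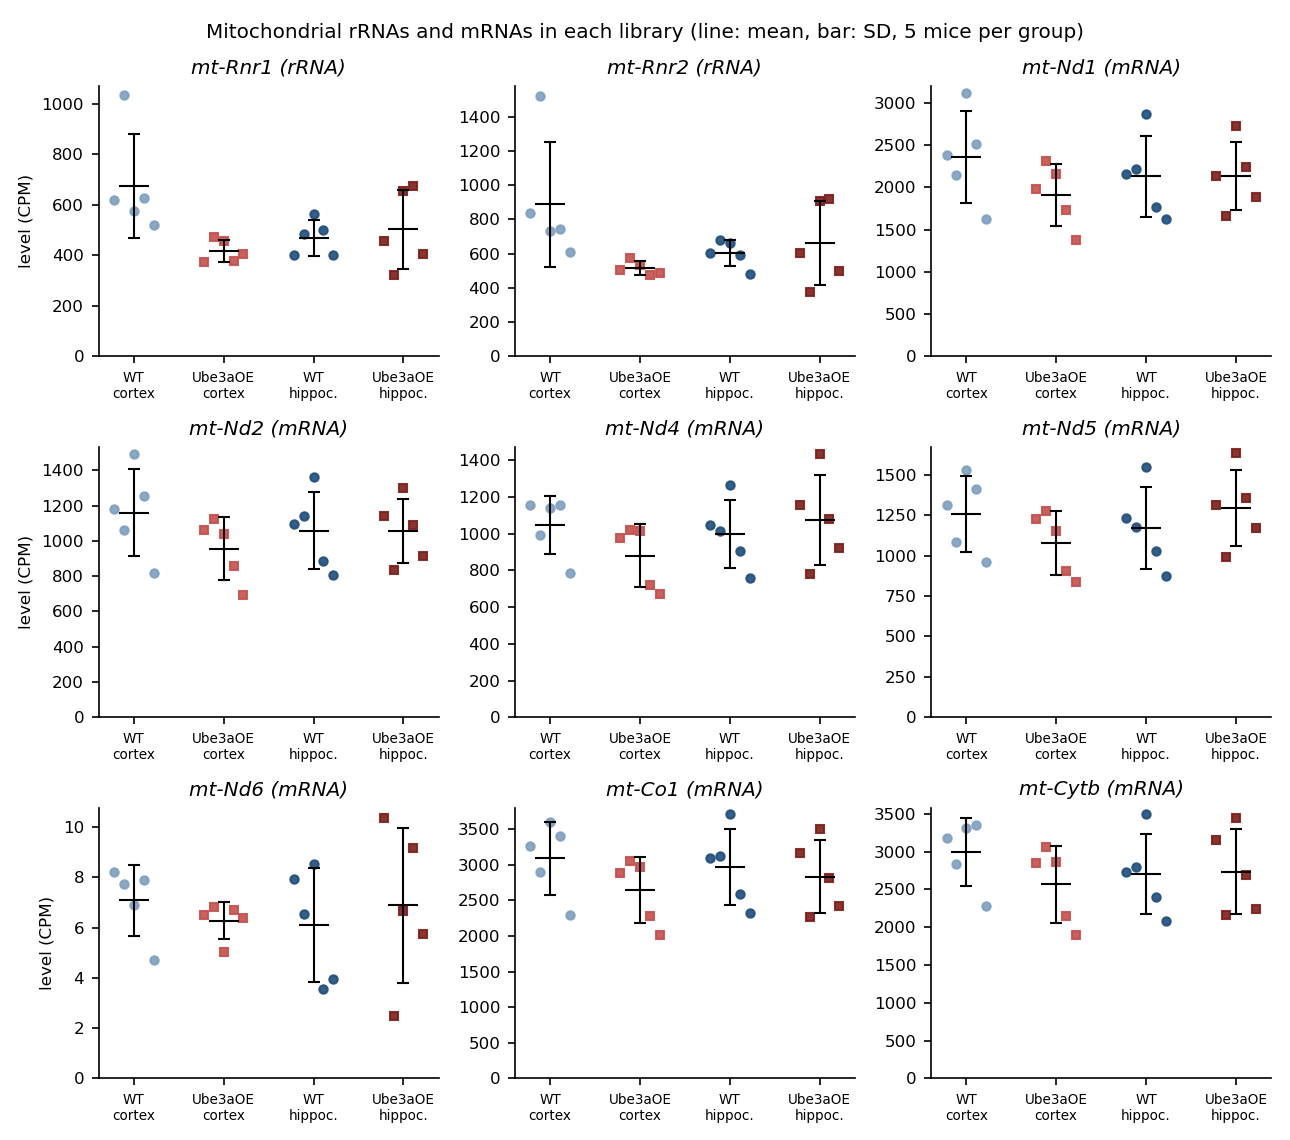
Level in CPM (linear axis from 0) of each of the 9 genes in each library, in 4 groups of 5 mice. Points are libraries in the order of the mouse numbers, the horizontal line is the group mean and the bar its SD. For both rRNAs the 5 Ube3aOE cortex libraries lie below the 5 WT cortex libraries, and for the mRNAs the groups overlap.

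Library totals on genes ranged from 14191093 to 16752326 counts. *Ube3a* was higher in Ube3aOE mice by 1.31 on the log2 scale in cortex and 1.33 in hippocampus, and was the 1 gene that passed an adjusted p of 0.05 in each region. Sex-linked genes went against the labelled sex in both libraries of WT mice 3 and 5. All 5 hippocampus markers (*Prox1*, *Zbtb20*, *Dsp*, *Fibcd1* and *Lef1*) were higher in hippocampus and 4 of 5 neocortex markers lower (edgeR, adjusted p under 0.05). Of the other marker lists, choroid plexus (4 of 4 tested) and thalamus (5 of 5) were higher in hippocampus, 2 of 5 striatum markers were lower, and 0 of 5 blood markers passed, while no marker passed between genotypes in edgeR. The summed hippocampus markers ranged from 275 to 424 CPM in WT and from 254 to 473 CPM in Ube3aOE hippocampus. The library of WT mouse 2 cortex stood apart. Of all libraries it had the lowest total, the lowest share of reads on genes (69.7%) and the highest share not aligned (8.66%). Its level of *Gm42418*, an annotated RNA that overlaps the nuclear ribosomal RNA repeat, was 41566 CPM. The other 4 WT cortex libraries had a median of 3886 CPM of this RNA. The Ube3aOE hippocampus libraries of mice 8 and 9 held 11160 and 22312 CPM of it.

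In cortex, both mitochondrial rRNAs were lower in Ube3aOE than in WT mice, by a margin that did not pass adjustment over all genes in edgeR. *mt-Rnr1*, the RNA of the small ribosomal subunit, was at 619, 1034, 574, 625 and 519 CPM in WT mice 1 to 5, and at 375, 472, 455, 378 and 404 CPM in Ube3aOE mice 6 to 10. Every Ube3aOE library lay below every WT library, and the WT library of mouse 2 was far above the other 4. The group means were 674 ± 206 and 417 ± 44.7 CPM (SD, n = 5 mice each), so the Ube3aOE mean was 61.8% of the WT mean. The log2 fold change was -0.69 (standard error 0.17, 95% confidence interval -1.07 to -0.31), with an unadjusted p of 0.00208 and an adjusted p of 0.960 (edgeR's quasi-likelihood F test).

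*mt-Rnr2*, the RNA of the large ribosomal subunit, followed the same pattern. It was at 835, 1521, 731, 742 and 607 CPM in WT cortex and at 504, 576, 535, 474 and 484 CPM in Ube3aOE cortex, again without overlap and with mouse 2 highest. The means were 887 ± 364 and 515 ± 41.6 CPM (SD, n = 5 each), a Ube3aOE mean of 58.0% of WT. The log2 fold change was -0.78 (standard error 0.23, interval -1.29 to -0.28, unadjusted p = 0.00624, adjusted p = 0.960, edgeR). In bulk tissue, fewer cells of a type and less RNA per cell cannot be told apart.

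Among 10076 genes with a mean of at least 10 CPM, 38 genes (0.377%) were lower in Ube3aOE cortex without overlap. Among the 9 members the 2 rRNAs were, while *mt-Nd6* (mean 6.59 CPM) lay below that limit and overlapped. Without mouse 2, the log2 fold change was -0.49 for *mt-Rnr1* (standard error 0.081, unadjusted p = 4.53e-05, adjusted p = 0.183) and -0.51 for *mt-Rnr2* (standard error 0.086, unadjusted p = 6.57e-05, adjusted p = 0.198, edgeR). DESeq2 called *mt-Rnr1* (log2 fold change -0.69, adjusted p = 0.0464) and not *mt-Rnr2* (-0.79, adjusted p = 0.996).

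Markers of hippocampus were higher in some of the Ube3aOE cortex libraries. Their summed level was 36.9 to 54.4 CPM in WT cortex and 44.5 to 136 CPM in Ube3aOE cortex (medians 46.2 and 65.4 CPM). It was highest in mice 8 and 9 (136 and 126 CPM), while mice 6 and 7 lay within the WT range (44.5 and 49.0 CPM). Mice 8 and 9 also had the lowest summed neocortex markers in cortex (1517 and 1604 CPM, against 1911 to 2534 CPM in WT). Of the 5 hippocampus markers, 4 were above 0 in the fit (median log2 fold change 0.55), 0 passed adjustment and 3 had an unadjusted p under 0.05 (edgeR). Without mouse 8 the log2 fold change of *mt-Rnr1* was -0.73 and without mouse 9 it was -0.66 (adjusted p = 1.00 for both, edgeR). The part of these markers in the genotype differences was not tested further.

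The 7 mRNAs were also lower on average in Ube3aOE cortex, by less, and none passed the test. *mt-Co1* was at 3271, 2898, 3603, 3405 and 2302 CPM in WT mice 1 to 5 and at 2891, 3053, 2978, 2276 and 2016 CPM in Ube3aOE mice 6 to 10. The groups overlapped widely, and mouse 2 was not high among the WT libraries. The log2 fold change was -0.23 (standard error 0.14, adjusted p = 0.960, edgeR). *mt-Nd1* was at 2387, 2142, 3113, 2519 and 1620 CPM in WT and at 1976, 2315, 2158, 1735 and 1379 CPM in Ube3aOE cortex. It had the largest fitted difference of the mRNAs, -0.30 on the log2 scale (standard error 0.18, adjusted p = 0.960, edgeR). For all 7 mRNAs the 5 Ube3aOE libraries lay below the WT median. The share of all genes with this pattern was not counted, and the mRNAs are not independent, so this count cannot be weighed. The Ube3aOE means were 81.2% (*mt-Nd1*) to 88.6% (*mt-Nd6*) of the WT means, and the fitted log2 fold changes of *mt-Nd2*, *mt-Nd4*, *mt-Nd5*, *mt-Nd6* and *mt-Cytb* were -0.28, -0.25, -0.22, -0.17 and -0.22.

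Of 14947 genes tested in cortex 1 was called (0.00669%), and 0 of the 9 members. At an unadjusted p under 0.05 edgeR gave 2 of the 9, both rRNAs, and 663 of all genes (4.44%). All 9 fitted differences were below 0, with a median of -0.25, while the median of all genes tested was 0.0033. The members share precursors, libraries and mice, so they are not 9 independent measurements. The other mitochondrial genes were too sparse to add to this, since 3 of 6 mRNAs and 4 of 22 transfer RNAs were tested in either region, and none passed (edgeR, 0 and 1 at an unadjusted p under 0.05 in cortex, 0 and 0 in hippocampus).

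**Figure D3:**
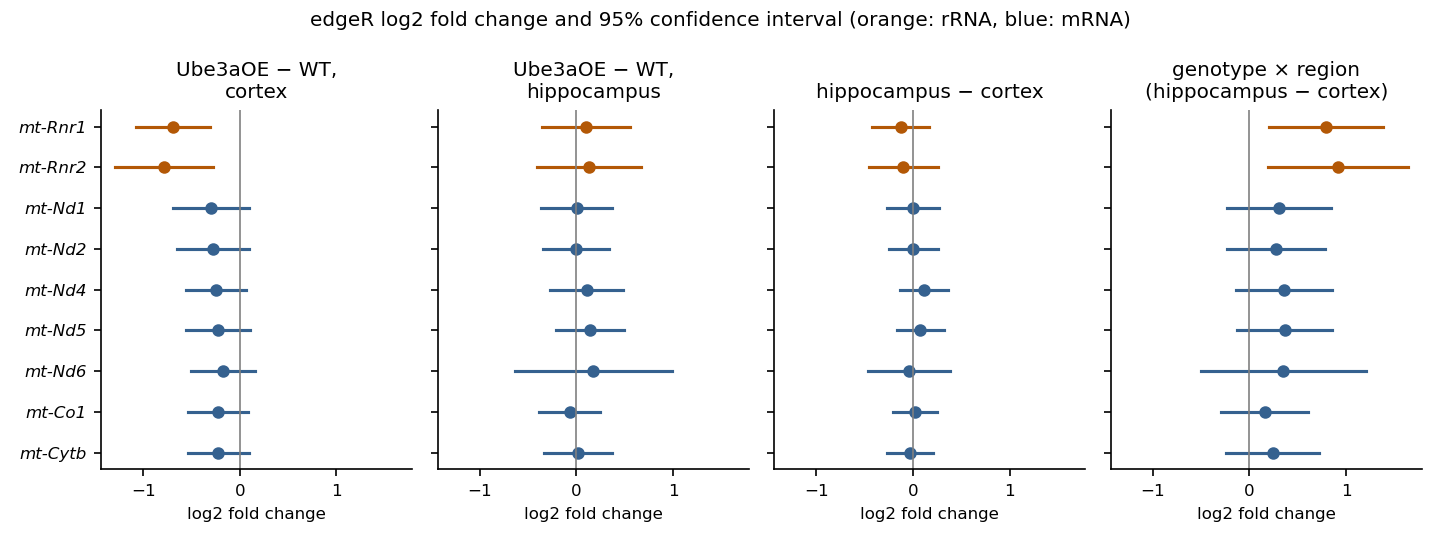
edgeR log2 fold change (points) with 95% confidence interval (lines) of the 9 genes in 4 comparisons, rRNAs in orange and mRNAs in blue, on a common axis. In cortex and in the interaction the intervals of both rRNAs do not include 0, while those of the 7 mRNAs include 0 in each comparison. None passed adjustment over all genes.

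In hippocampus the genotypes did not separate for any member. *mt-Rnr1* was at 400, 483, 563, 501 and 399 CPM in WT mice 1 to 5 and at 454, 323, 652, 675 and 405 CPM in Ube3aOE mice 6 to 10. Mice 8 and 9, the Ube3aOE libraries with most *Gm42418*, were highest and mouse 7 lowest, so the Ube3aOE range enclosed the WT range. *mt-Rnr2* was at 602, 680, 661, 592 and 482 CPM in WT and at 604, 373, 909, 921 and 497 CPM in Ube3aOE hippocampus, with the same mice at the extremes. The log2 fold changes were 0.099 for *mt-Rnr1* (standard error 0.20, interval -0.36 to 0.55, adjusted p = 0.903) and 0.13 for *mt-Rnr2* (standard error 0.24, interval -0.41 to 0.67, adjusted p = 0.892, edgeR). Without mice 8 and 9, a setting chosen after the values were seen, they were -0.25 and -0.29 (adjusted p = 0.792 and 0.791).

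For the mRNAs the genotypes overlapped as well. *mt-Co1* was at 3101, 3123, 3715, 2592 and 2323 CPM in WT and at 3161, 2265, 3512, 2814 and 2421 CPM in Ube3aOE hippocampus. The values interleave, and the fitted difference was -0.068 (standard error 0.14, adjusted p = 0.904, edgeR). The other mRNAs lay between -0.0044 (*mt-Nd2*) and 0.17 (*mt-Nd6*). The interval was widest for *mt-Nd6*, -0.64 to 0.99. Its libraries ran from 3.57 to 8.52 CPM in WT and from 2.48 to 10.4 CPM in Ube3aOE hippocampus. Of 15220 genes tested 1 was called (0.00657%), and 0 of the 9 members passed in edgeR or DESeq2. At an unadjusted p under 0.05, 0 members and 1097 of all genes (7.21%) passed in edgeR. The members' median was 0.099, against 0.0037 for all genes tested, with 7 above 0 and 2 below. Markers of neighboring tissues were higher on average in Ube3aOE hippocampus, with high sums in few libraries. The 4 choroid plexus markers tested were all above 0 (median log2 fold change 2.50, 3 at an unadjusted p under 0.05), with sums of 8.64 to 31.7 CPM in WT and 7.02 to 1942 CPM in Ube3aOE libraries. All 5 striatum markers were above 0 as well (median 1.80, 0 at an unadjusted p under 0.05), with sums of 43.5 to 64.2 CPM and 40.2 to 498 CPM. The sum of 498 CPM was that of Ube3aOE mouse 9 (next Ube3aOE library 51.9 CPM), and the group medians were 45.9 CPM in WT and 49.7 CPM in Ube3aOE. Of the 5 thalamus markers 4 were above 0 (median 0.88, 0 at an unadjusted p under 0.05), with sums of 169 to 539 CPM and 177 to 1223 CPM. The highest thalamus sums were those of Ube3aOE mice 10 and 7 (1223 and 613 CPM) and of WT mouse 4 (539 CPM). None passed adjustment (edgeR), the ranges of the genotypes overlapped for each list, and the part of the striatum and thalamus markers in the results was not tested. The choroid plexus marker *Ttr* stood at 1901 CPM in Ube3aOE mouse 7 and 323 CPM in mouse 9. Without these libraries the differences of *mt-Rnr1* and *mt-Rnr2* were 0.11 and 0.15 (adjusted p = 0.931 and 0.913, edgeR).

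Between regions the members differed little, in data where about every other gene differed. Of 15661 genes tested over all 20 libraries, 7934 (50.7%) were called, 4099 (26.2%) higher and 3835 (24.5%) lower in hippocampus. With library totals in place of TMM factors, the higher calls made up 62.5% of all calls, against 51.7%. None of the 9 members was called by edgeR or DESeq2 (0 at an unadjusted p under 0.05 in either). The fitted log2 differences, hippocampus against cortex, ran from -0.13 (*mt-Rnr1*, interval -0.42 to 0.17, adjusted p = 0.474) to 0.11 (*mt-Nd4*, interval -0.14 to 0.36, adjusted p = 0.459). *mt-Rnr2* was at -0.097 (interval -0.46 to 0.26) and *mt-Co1* at 0.021 (interval -0.20 to 0.25). The members' median was 0.0053, beside 0.0040 for all genes tested, and the median absolute difference of all genes was 0.195. These intervals come from a fit without the pairing of regions within mice, and a difference inside them could not be told from 0 in that fit. With the mouse as a replicate block, the standard error was 0.071 for *mt-Co1* and 0.14 for *mt-Rnr1*. No member was called there either (edgeR, 0 at an unadjusted p under 0.05).

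Within mice, however, the rRNAs ran one way in WT and mostly the other way in Ube3aOE animals. Both rRNAs were lower in hippocampus than in cortex in 5 of 5 WT mice and higher in 4 of 5 Ube3aOE mice. In WT mice the mean log2 difference of *mt-Rnr1* was -0.49 ± 0.40 (SD, n = 5), from -1.10 in mouse 2 to -0.027. In Ube3aOE mice it was 0.22 ± 0.53 (SD, n = 5), from -0.55 to 0.84. Of the 7 mRNAs, 6 were also higher in hippocampus in 4 of 5 Ube3aOE mice, and *mt-Nd6* in 3 of 5, while in WT mice the mRNAs were higher in 1 to 3 of 5. *mt-Nd5* was at -0.11 ± 0.22 in WT and 0.26 ± 0.40 in Ube3aOE mice, *mt-Nd4* at -0.072 ± 0.19 and 0.28 ± 0.39, and *mt-Co1* at -0.061 ± 0.20 and 0.10 ± 0.30 (SD, n = 5 each). Whether rRNAs and mRNAs differed in this was not tested.

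The interaction of genotype and region, fitted without the pairing of regions within mice, was 0.79 for *mt-Rnr1* (standard error 0.28, interval 0.20 to 1.38, unadjusted p = 0.0111) and 0.92 for *mt-Rnr2* (standard error 0.34, interval 0.19 to 1.64, unadjusted p = 0.0159). Both had an adjusted p of 0.996 (edgeR). Of 15661 genes 0 were called (0%) by edgeR or DESeq2, and 598 (3.82%) had an unadjusted p under 0.05 in edgeR. Among the members these were the 2 rRNAs, and the mRNAs lay between 0.16 (*mt-Co1*) and 0.37 (*mt-Nd5*). Without the libraries of WT mouse 2 cortex and Ube3aOE mice 8 and 9 hippocampus, the interactions were 0.24 for *mt-Rnr1* and 0.21 for *mt-Rnr2* (adjusted p = 0.984, edgeR). With the mouse as a replicate block, which keeps the pairing, they were 0.71 (standard error 0.27, unadjusted p = 0.0267) and 0.77 (standard error 0.31, unadjusted p = 0.0325). The adjusted p was 0.797 for both (edgeR).

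**Figure D4:**
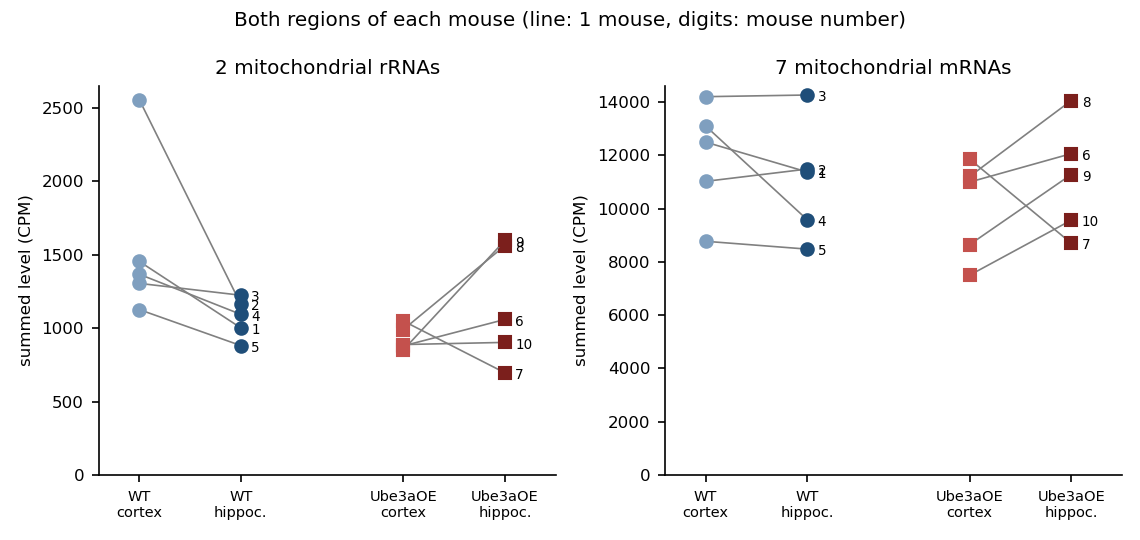
Summed level in CPM (linear axis from 0) of the 2 rRNAs (left) and the 7 mRNAs (right) in the cortex and hippocampus of each mouse, with a line joining both libraries of a mouse and its number beside the hippocampus point. The rRNA lines fall in 5 of 5 WT mice, and WT mouse 2 starts at 2555 CPM in cortex.

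Correlations across mice were higher within the rRNAs and within the mRNAs than between them, a contrast that was not tested. Deviations from the genotype mean were correlated over the 10 mice within each region, with exact two-sided permutation tests within genotypes (14400 orders) and adjustment over 12 relations. *mt-Rnr1* and *mt-Rnr2* had a Pearson correlation of 0.969 in cortex (exact p = 0.00139, adjusted 0.00556, and rho = 0.842, exact p = 0.00708, adjusted 0.0213) and of 0.947 in hippocampus (exact p = 0.00201, adjusted 0.00604, and rho = 0.915, exact p = 0.00667, adjusted 0.0213). Without the 2 mice farthest from the median the correlations were 0.894 and 0.877. *mt-Co1* and *mt-Nd1* had 0.964 in cortex (rho = 1, exact p = 6.94e-05 for both, the smallest these permutations can give, adjusted 0.000833) and 0.961 in hippocampus (exact p = 0.000208, adjusted 0.00125, and rho = 0.879, exact p = 0.00486, adjusted 0.0213). Without the 2 farthest mice they were 0.964 and 0.931. Between an rRNA and an mRNA, *mt-Co1* and *mt-Rnr1* had 0.179 in cortex (exact p = 0.644, adjusted 0.644, and rho = 0.176, exact p = 0.659, adjusted 0.659) and 0.663 in hippocampus (exact p = 0.0508, adjusted 0.0871, and rho = 0.648, exact p = 0.0634, adjusted 0.127), or 0.0847 and 0.462 without the 2 farthest mice.

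As a description over all 20 libraries, the 15 pairs of mRNAs other than *mt-Nd6* had correlations of 0.914 to 0.988 and the 12 pairs of an rRNA and such an mRNA 0.453 to 0.584. These values share library, mouse and scaling. The rRNAs took 7.40% to 18.8% of the counts of the 9 members, with the highest share in the cortex of WT mouse 2 (11.4% in the next WT cortex library). The ratio of *mt-Rnr2* to *mt-Rnr1* counts was 1.15 to 1.51.

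*Gm42418* was correlated with the rRNAs and with *mt-Co1* in the same way, and none of these relations passed an adjusted p of 0.05. Its correlation with *mt-Rnr1* was 0.768 in cortex (exact p = 0.0963, adjusted 0.128, and rho = 0.539, exact p = 0.168, adjusted 0.224) and 0.800 in hippocampus (exact p = 0.0216, adjusted 0.0518, and rho = 0.782, exact p = 0.0360, adjusted 0.0865). Without the 2 mice farthest from the median in *Gm42418* it was -0.295 and 0.498, so the cortex relation rests on those mice. With *mt-Rnr2* it was 0.818 in cortex and 0.732 in hippocampus (exact p = 0.0860 and 0.0481, adjusted 0.128 and 0.0871), with rho = 0.624 and 0.600 (exact p = 0.116 and 0.162, adjusted 0.199 and 0.224). It was -0.592 and 0.290 without the 2 farthest mice. With *mt-Co1* it was -0.321 and 0.187 (exact p = 0.427 and 0.626, adjusted 0.513 and 0.644), with rho = -0.479 and 0.176 (exact p = 0.218 and 0.642, adjusted 0.262 and 0.659). It was -0.823 and -0.0848 without the 2 farthest mice.

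*Gm42418* itself ranged from 2367 to 41566 CPM in WT cortex and from 2069 to 3787 CPM in Ube3aOE cortex. Of the 5 measures of ribosomal RNA (*Gm42418*, *Gm26917*, *AY036118*, *Lars2* and *Rn18s-rs5*), 0 of 3 tested passed in cortex and 0 of 4 in hippocampus (edgeR, 1 and 2 at an unadjusted p under 0.05). The 3 in cortex were all below 0 (median log2 fold change -1.94) and the 4 in hippocampus all above 0 (median 1.21). In the interaction the 4 tested were above 0 (median 3.20), 0 passed and 3 had an unadjusted p under 0.05 (edgeR). Within mice, *Gm42418* was lower in hippocampus in 3 of 5 WT mice (mean log2 difference -1.05 ± 2.13, SD, n = 5) and higher in 4 of 5 Ube3aOE mice (1.31 ± 1.25, SD, n = 5). The mitochondrial rRNAs had the same signs in these comparisons, although both were lower in hippocampus in 5 of 5 WT mice. Whether these patterns are linked was not tested. With its log2 CPM as a covariate, chosen after the values were seen, the cortex differences of *mt-Rnr1* and *mt-Rnr2* were -0.44 and -0.42 (unadjusted p = 0.00375 and 0.0102, adjusted p = 1.00, edgeR). In hippocampus they were -0.30 and -0.33 (adjusted p = 0.988), and the interactions 0.18 and 0.13 (adjusted p = 1.00, edgeR). Among the 4 WT cortex libraries other than mouse 2, *mt-Rnr1* was at 519 to 625 CPM, and in Ube3aOE cortex at 375 to 472 CPM. *Gm42418* was at 9757, 2367, 2834 and 4939 CPM in these WT libraries (mice 1, 3, 4 and 5). The cause of the rRNA differences was not tested.

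**Figure D5:**
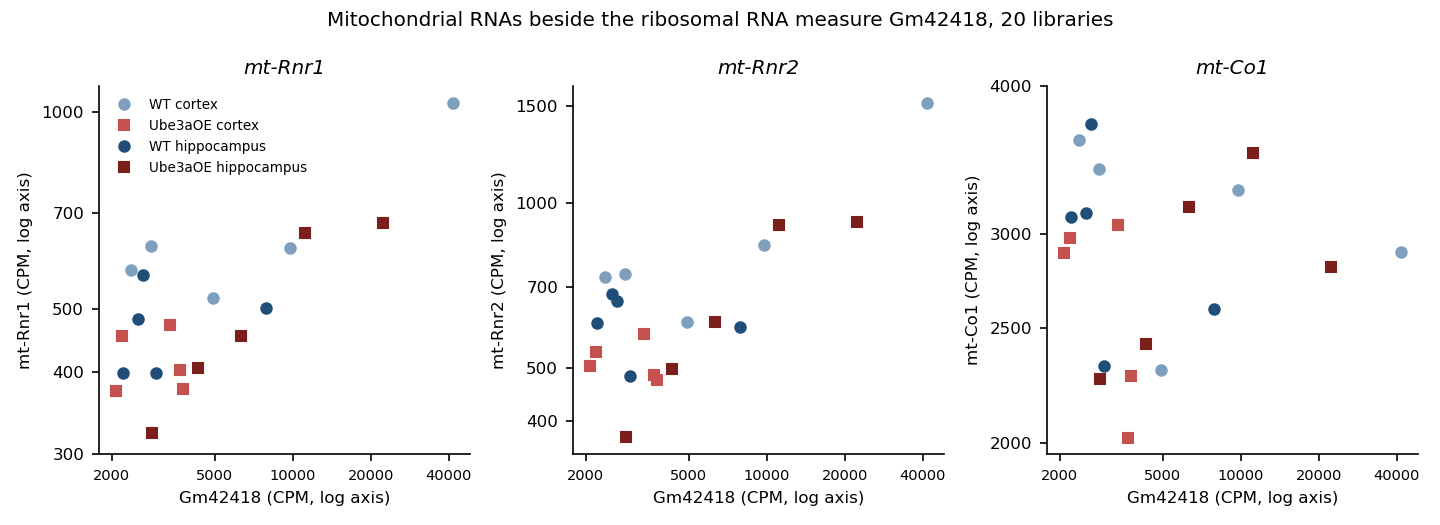
Level of *mt-Rnr1*, *mt-Rnr2* and *mt-Co1* against *Gm42418* in the 20 libraries, both in CPM on log axes, with colors and symbols for the 4 groups. The library of WT mouse 2 cortex lies at the upper right for both rRNAs and in the middle of the range for *mt-Co1*.

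Among 10069 nuclear genes with a mean of at least 10 CPM, those whose log2 CPM was most like *mt-Rnr1* over the 20 libraries were *Rpgr*, *Eapp*, *Gm42418*, *Gm15564* and *Cops4* (Pearson correlations of 0.778 to 0.685). For *mt-Rnr2* they were *Gm42418*, *Gm15564*, *Rpgr*, *Myef2* and *Fhl1* (0.751 to 0.706). For *mt-Co1* they were *Gm13341*, *Tlk2*, *Hdac3*, *Rap2c* and *Cnot2* (0.880 to 0.717), and for *mt-Nd1* *Gm13341*, *Rap2c*, *Tlk2*, *Armcx5* and *Gm13340* (0.851 to 0.719). *Gm13341* and *Gm13340* are annotated copies of *mt-Co2* and *mt-Co1* on chromosome 2.

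Counts were also assigned to the nuclear copies of the mitochondrial genome. *Gm28437* held 721 to 2025 counts per library and *mt-Co3* 18 to 41, although their 783 aligned bases were identical. How reads of such identical sequence came to be counted on the copy was not tested. Of the 12 nuclear pseudogenes that share stretches with the mRNAs, 10 were tested in cortex. All 10 were below 0 (median log2 fold change -0.58), 0 passed adjustment in edgeR and 8 had an unadjusted p under 0.05. The fitted difference was below the -0.30 of *mt-Nd1*, the lowest of the mRNAs, in 9 of 10, the exception being *Gm13341* (-0.24), and this contrast was not tested. Of the 7 with a mean of at least 10 CPM, 6 were lower in Ube3aOE cortex without overlap, against the 0.377% given above. The copies on chromosome 1 lie side by side, and all copies share libraries and mice. They are therefore not independent measurements, and these counts cannot be weighed against the share of all genes. DESeq2 called 3 of them, all on chromosome 1, with *mt-Rnr1* and *Ube3a* the other calls of its 5.

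*Gm29216*, the copy of *mt-Co1* printed above, was at 48.1, 44.3, 58.4, 80.0 and 58.7 CPM in WT mice 1 to 5 and at 34.3, 34.1, 40.9, 34.0 and 36.2 CPM in Ube3aOE mice 6 to 10 in cortex. Unlike the rRNAs, it was lowest, not highest, in mouse 2 among the WT libraries. Its log2 fold change was -0.69 (standard error 0.14, adjusted p = 0.960 in edgeR and 0.00665 in DESeq2), while that of *mt-Co1* was -0.23. *Gm28661*, the copy of *mt-Co2*, was at -0.62 (standard error 0.12, adjusted p = 0.888 in edgeR and 0.00595 in DESeq2), and *Gm10925*, the copy of *mt-Atp6*, at -0.68 (standard error 0.16, adjusted p = 0.960 and 0.0464). With *Gm42418* as a covariate edgeR called *Gm29216* (-0.86, adjusted p = 0.0160) and *Gm28661* (-0.75, adjusted p = 0.0355). In hippocampus these 3 copies were at 0.083, -0.0055 and 0.016 (adjusted p = 0.917 to 0.994, edgeR). Reads of a copy and of the mitochondrial gene can be told apart only at differing bases or at the ends of the copy, and the share of these counts that came from mitochondrial RNA was not tested.

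The proteins that work with these RNAs are encoded in the nucleus. Of 41 names listed for mitochondrial DNA upkeep, transcription and RNA processing, 36 were in the files and 35 tested. None passed in either genotype comparison (edgeR, 1 at an unadjusted p under 0.05 in each, or 2.86%, beside 4.44% of all genes in cortex and 7.21% in hippocampus). Between regions 6 (17.1%) were higher and 3 (8.57%) lower in hippocampus, beside 26.2% and 24.5% of all genes. *Mtpap*, the mitochondrial poly(A) polymerase, rose by 0.30 on the log2 scale (standard error 0.059, adjusted p = 0.000188), and *Grsf1*, a protein of mitochondrial RNA granules, by 0.27 (standard error 0.056, adjusted p = 0.000327). *Mterf2* and *Fastkd2* were higher by 0.27 and 0.26 (adjusted p = 0.00372 and 0.00572, edgeR). *Mrm1*, which methylates the 16S rRNA, was lower by the widest margin (-0.61, standard error 0.093, adjusted p = 1.27e-05). *Rexo2*, an exonuclease for short RNAs, and *Fastkd5* were at -0.18 and -0.27 (adjusted p = 0.00105 and 0.0410), and *Mterf1a*, at -0.35, did not pass (adjusted p = 0.0869, edgeR). The rRNAs themselves differed between regions by -0.13 and -0.097 without passing.

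Of 82 genes named for mitochondrial ribosomal proteins, 77 were tested, and 4 were higher and 28 lower in hippocampus (edgeR, adjusted p under 0.05, median -0.079). These are 5.19% and 36.4% of the 77, beside 26.2% and 24.5% of all genes tested. The lower ones with the smallest p were *Mrps27* (-0.22), *Mrpl42* (-0.21), *Mrpl28* (-0.23) and *Mrps24* (-0.29), and the 4 higher ones *Mrpl17* (0.18), *Mrpl1* (0.20), *Mrpl10* (0.11) and *Mrps30* (0.13). Between genotypes 0 passed in either region (edgeR). At an unadjusted p under 0.05 there were 2 of 77 in cortex (beside 4.44% of all genes) and 8 of 77 in hippocampus (10.4%, beside 7.21%). In cortex 31 of 77 were below 0 (40.3%, beside 48.6% of all genes, median 0.0057), and in hippocampus 71 of 77 (92.2%, beside 48.9%, median -0.079).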

How the data were processed

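RNA of 20 libraries (total RNA, RNeasy kit, stranded mRNA kit per the labels) was counted on genes by the authors. The deposited files hold whole-number read counts without normalization, 1 file per library. The submitters' processing notes name HISAT2 2.1.0, HTSeq 0.11.2, GRCm38 and mm10; the annotation and the strand setting are not given in the sources used here. Of each file, 5 lines that name no gene (69.7% to 81.2% of reads were on genes, and 10.3% to 13.7% aligned to more than 1 place) were left out of totals and tests. Totals were 14191093 to 16752326 counts.

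Genotype, region and mouse came from the labels. The labelled mouse number was taken to pair both regions. Deviations of the 2 libraries of a mouse from their group means correlated with a median of 0.215 over genes. The range was -0.0366 to 0.248, with 9 of 10 mice above 0.1. Libraries of different mice were not compared in this way, so these values do not test the pairing. The fits used no covariate, and the study's text names none.

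Counts were analyzed in R 4.3.3 with edgeR 4.0.16 (TMM, filterByExpr, robust quasi-likelihood F test, Benjamini-Hochberg adjustment over all genes tested, threshold 0.05). Genotypes were compared in the 10 libraries of a region, and regions and the interaction over all 20. Standard errors and 95% intervals came from the F statistic. Within a region, with 1 library per mouse, they measure the spread between mice. Over all 20 libraries the fit had no mouse term, so there they measure the spread between libraries. The fit was tested on simulated data. Alternatives were DESeq2 1.42.0, no filter, library totals, totals without mitochondrial and ribosomal RNA genes, the mouse as replicate block, each mouse left out, and, chosen after the data were seen, *Gm42418* as a covariate and fits without libraries high in *Gm42418* or *Ttr*. Python 3.11.15 served for tables (pandas 2.3.3), figures (matplotlib 3.10.9) and permutation tests. Gene positions and sequences were from GENCODE M21 (GRCm38).

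The members, lists and markers were chosen with earlier results of these data known. Genes named are the 9 members, *Ube3a*, the other mitochondrial mRNAs, 5 measures of ribosomal RNA, for 4 members the 5 genes most like each, and in the lists of nuclear genes the 4 with the smallest p per direction between regions; nuclear copies and markers were named after their values were seen.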

Additional observations from a re-analysis of the deposited data

Results flagged for a closer look

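Of 60 sets of 5 libraries (15 measures in 4 groups) searched for a library far from the rest of its group by Dixon's test, 9 had one, where chance gives about 1 in 20, or 3. The sets are not independent, since the sum and the share of the rRNAs use the counts of *mt-Rnr1* and *mt-Rnr2*. The 9 are therefore not a count of separate libraries and cannot be weighed against the 3. In WT cortex, mouse 2 was highest for *mt-Rnr1* (1034 CPM, next library 625 CPM), *mt-Rnr2* (1521 CPM, next 835 CPM), their sum (2555 CPM, next 1454 CPM), their share of the members' counts (18.8%, next 11.4%) and *Gm42418* (41566 CPM, next 9757 CPM). In WT hippocampus, mouse 4 was highest for *Gm42418* (7914 CPM, next 2971 CPM), and its *mt-Rnr1* of 501 CPM was within the range of its group. In Ube3aOE cortex, mouse 8 was lowest for *mt-Nd6* (5.01 CPM, next 6.37 CPM) and mouse 9 highest for *Ttr* (6.64 CPM, next 0.643 CPM). In Ube3aOE hippocampus, mouse 7 was highest for *Ttr* (1901 CPM, next 323 CPM), where it was also lowest for both rRNAs. No mRNA of the members other than *mt-Nd6* had such a library.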

How the results depend on the processing

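In cortex, DESeq2 called 5 genes, 1 of them a member (*mt-Rnr1*), and *Gm42418* as a covariate gave 3 genes and no member, against 1 gene and no member in the reported fit. All 9 members stayed below 0 in cortex in every setting run, and leaving out each mouse gave -0.77 to -0.49 for *mt-Rnr1* and -0.89 to -0.51 for *mt-Rnr2*. Uncalled directions turned in the other comparisons. In hippocampus, *mt-Nd1* was at -0.0044 with library totals. With *Gm42418* as a covariate *mt-Rnr1*, *mt-Rnr2*, *mt-Nd1*, *mt-Nd4*, *mt-Nd6* and *mt-Cytb* were at -0.30, -0.33, -0.087, -0.024, -0.034 and -0.065. Without mice 8 and 9 *mt-Rnr1*, *mt-Rnr2*, *mt-Nd1*, *mt-Nd4*, *mt-Nd5* and *mt-Cytb* were at -0.25, -0.29, -0.16, -0.064, -0.012 and -0.10, and without mice 7 and 9 *mt-Nd2* and *mt-Co1* at 0.081 and 0.031. Between regions, *mt-Nd6* and *mt-Cytb* were at 0.0046 and 0.020 with library totals, and without WT mouse 2 cortex and Ube3aOE mice 8 and 9 hippocampus *mt-Nd1*, *mt-Nd2*, *mt-Nd5* and *mt-Co1* were at -0.096, -0.075, -0.026 and -0.049.

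Leaving out single mice, the hippocampus difference ranged from -0.031 to 0.22 for *mt-Rnr1*, -0.018 to 0.28 for *mt-Rnr2*, -0.096 to 0.13 for *mt-Nd1*, -0.088 to 0.10 for *mt-Nd2*, -0.014 to 0.20 for *mt-Nd4*, -0.015 to 0.39 for *mt-Nd6*, -0.15 to 0.025 for *mt-Co1* and -0.074 to 0.13 for *mt-Cytb*. The region difference ranged from -0.19 to 0.021 for *mt-Rnr2*, -0.033 to 0.074 for *mt-Nd1*, -0.030 to 0.066 for *mt-Nd2*, -0.14 to 0.071 for *mt-Nd6*, -0.0098 to 0.076 for *mt-Co1* and -0.072 to 0.036 for *mt-Cytb*. No member was called in any of these fits. With the mouse as replicate block, the region differences of *mt-Rnr1* and *mt-Rnr2* were -0.13 and -0.10 (adjusted p = 0.429 and 0.603, edgeR), 8662 genes were called in place of 7934, and no member's call changed. The covariate and the fits without chosen libraries were added after the data were seen, and the cause of each change was not tested. *mt-Nd6*, with as few as 41 counts, has the largest relative counting error of the members, and the part of this error in its intervals was not tested. Intervals rest on 5 mice a group.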
